A study of Mus musculus with 11 samples.

Results

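Mouse induced pluripotent stem cells (iPSC) grown on a layer of feeder cells were compared here with iPSC grown without feeders, across all genes of an Illumina bead array. The comparison used 6 of the 11 samples of the series: 3 arrays of iPSC on feeder and 3 arrays of feeder-free iPSC. The 2 arrays of feeder cells entered the same fit and gave the feeder level of each gene, and the 3 in silico mixtures were used only to recover the feeder-free arrays. Genes entered the test by detection and not by their difference between the groups. Every gene with a probe above background on all arrays of at least 1 group was tested, 10058 genes in all. Many of the genes named below were picked by their values.

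The iPSC on feeder were of strain C57BL/6, were kept on mitomycin C-treated SNL76/7 cells, a fibroblast line used as feeder, and were lifted mechanically off the layer. The feeder-free iPSC were of the same strain and grew in high-glucose DMEM with 15% serum, non-essential amino acids, 2-mercaptoethanol and 1000 units per ml of leukemia inhibitory factor (LIF). The feeder cells were embryonic fibroblasts of C57BL/6 expressing LIF; their arrays carry the name MSTO, and the labels do not say how MSTO relates to SNL76/7. Amounts of LIF and serum were given for the feeder-free cultures only, and lifting goes with the on-feeder cultures, so feeder, medium and harvest cannot be told apart. The labels number the replicates without saying that they were separate cultures, so p-values measure only the spread between these samples. In bulk RNA, fewer cells of a type and less RNA per cell cannot be told apart.

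Feeder cells hold mouse pluripotent cells in self-renewal by secreting LIF, which acts through STAT3, and by laying down matrix to which colonies attach. Feeders that have been growth-arrested remain metabolically active, and secrete cytokines, growth factors, matrix proteins and proteases. Pluripotent cells in serum with LIF are a mixed population in which some cells start programmes of primitive endoderm or epiblast. Exchange between the 2 cell kinds runs both ways, through chemokines, TGF-beta and Nodal ligands, IGF-binding proteins and contact between surface proteins.

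Between 17630 and 19043 probes were detected on the on-feeder arrays and between 17307 and 18759 on the feeder-free arrays (detection score over 0.95), against 13581 and 14574 on the feeder arrays. Pearson correlations across genes lay between 0.9918 and 0.9947 within iPSC on feeder, between 0.9938 and 0.9954 within feeder-free iPSC, and between 0.9755 and 0.9852 across the groups. All 11 pluripotency markers with a probe were detected on every array of both iPSC groups, and 1 of them on both feeder arrays. Of 19 feeder fibroblast markers with a probe, 13 were detected on both feeder arrays; Cdh11, Col1a2, Col3a1, Fap, Lum and Postn were detected on no array of any group, so the fibroblast label of the feeder arrays rests on markers such as Thy1, Col1a1, Loxl1 and Twist2. The summed normalized signal of the 19 fibroblast markers was 6459 to 7157 in iPSC on feeder, 4297 to 4751 in feeder-free iPSC, and 25725 and 29172 in feeder cells. Of the 13 that could be tested, 9 were called higher in iPSC on feeder and 0 lower, against 9.86% and 8.3% of all genes. Their median log2 difference was 1.07. The part that feeder RNA in the on-feeder samples played in the results below was not tested; the feeder level is given beside many of the genes below.

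Of the 10058 genes, 1827 (18.2%) were called at an adjusted p under 0.05 by limma, 992 (9.86%) higher and 835 (8.3%) lower in iPSC on feeder. Rises reached further than falls: 171 genes (1.7%) rose and 24 (0.239%) fell by at least 2-fold. The 3 on-feeder arrays lay wholly above or below the 3 feeder-free arrays for 3606 genes (35.9%), and 3307 (32.9%) had an unadjusted p under 0.05. The median log2 difference of all genes was -0.02. The number and balance of calls rested on the normalization: 54.3% of called genes were higher after quantile normalization, 65.8% after cyclic loess (1182 higher, 614 lower) and 77.4% after median scaling (309 higher, 90 lower). Single arrays moved the count by over 1.5 times. Leaving out on-feeder replicate 1 left 1197 genes, and leaving out on-feeder replicate 3 left 1134. The count was 1142 when feeder-free replicate 2 was dropped and 1136 when feeder-free replicate 3 was.

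Called genes differed by what the feeder arrays showed of them. Among 7718 genes detected on both feeder arrays, 916 (11.9%) were called higher and 533 (6.91%) lower in iPSC on feeder. Among 1887 genes detected on no feeder array, 64 (3.39%) were called higher and 281 (14.9%) lower. Of those 64, 23 had passed the detection filter only through the on-feeder arrays, as had 177 of the 1887. Likewise 36 of the 281 had passed only through the feeder-free arrays, as had 184 of the 1887. For these genes the filter favoured the direction of the call. All but 3 of the 30 largest rises were of genes whose mean level was highest in feeder cells.

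**Figure D1:**
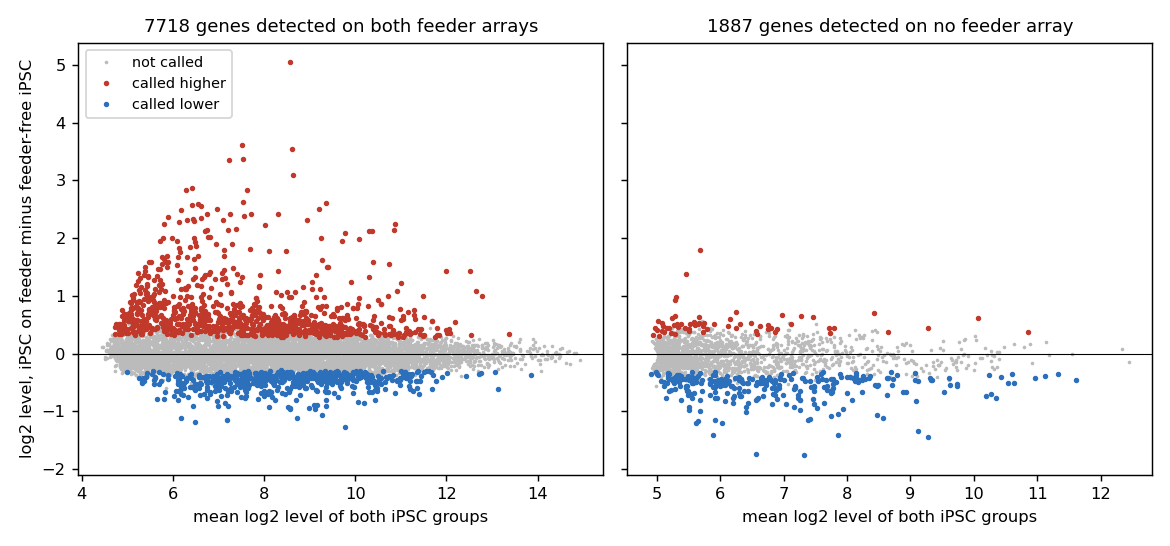
Log2 difference of each gene, iPSC on feeder minus feeder-free iPSC, against the mean log2 level of both iPSC groups, for 7718 genes detected on both feeder arrays (left) and 1887 detected on no feeder array (right). Red points were called higher and blue points lower in iPSC on feeder; 916 and 533 stand on the left, 64 and 281 on the right, and rises above a log2 difference of 2 appear on the left only.

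A small set of genes stood higher in iPSC on feeder than in either culture alone. Among 3930 genes (39.1%) called higher in iPSC on feeder than in feeder cells, 171 were also called higher than in feeder-free iPSC. That is a smaller share than the 992 of 10058 genes (9.86%) called higher than in feeder-free iPSC overall. Both comparisons use the same on-feeder arrays. The 10 with the largest margin over both were Mmp13, Ppbp, Wwtr1, Serpinb2, Mmp10, Selp, Ptpn22, Clgn, Bhlhe40 and Ccl2, and the chemokine Cxcl1, the largest rise of all, also lay above feeder cells by 0.64. Chemokines and matrix proteases are among them. Promoters of 4 chemokine and protease genes are shown because genes of this kind are known targets of NF-kB and AP-1 factors in other cells. Of these 4, Mmp3 does not belong to the genes above both cultures, since it lay below feeder cells. Below are the 250 bases before the RefSeq start of 4 genes (GRCm38.p6, plus strand), chosen after their values were seen: Cxcl1 (chr5:90890995-90891244), Mmp13 (chr9:7272264-7272513), Mmp10 (chr9:7502092-7502341) and Mmp3 (chr9:7445572-7445821). Capitals mark matches to GGGA, any 4 bases and CC, a motif of NF-kB class, in Cxcl1 and to TGANTCA, a motif of AP-1 class, in the other 3.
Cxcl1: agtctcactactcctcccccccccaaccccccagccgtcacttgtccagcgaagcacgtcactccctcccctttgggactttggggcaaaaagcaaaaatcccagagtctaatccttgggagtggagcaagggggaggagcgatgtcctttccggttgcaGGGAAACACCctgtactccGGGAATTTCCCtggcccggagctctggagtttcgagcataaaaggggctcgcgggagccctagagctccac
Mmp13: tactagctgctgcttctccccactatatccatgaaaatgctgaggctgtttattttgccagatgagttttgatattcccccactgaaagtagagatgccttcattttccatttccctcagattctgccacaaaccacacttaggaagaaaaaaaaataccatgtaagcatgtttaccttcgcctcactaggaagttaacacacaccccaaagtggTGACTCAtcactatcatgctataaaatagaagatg
Mmp10: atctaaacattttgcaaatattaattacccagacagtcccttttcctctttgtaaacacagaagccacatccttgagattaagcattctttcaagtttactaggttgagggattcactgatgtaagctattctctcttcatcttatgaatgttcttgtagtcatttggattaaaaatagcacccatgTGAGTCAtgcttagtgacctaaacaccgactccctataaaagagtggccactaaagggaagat
Mmp3: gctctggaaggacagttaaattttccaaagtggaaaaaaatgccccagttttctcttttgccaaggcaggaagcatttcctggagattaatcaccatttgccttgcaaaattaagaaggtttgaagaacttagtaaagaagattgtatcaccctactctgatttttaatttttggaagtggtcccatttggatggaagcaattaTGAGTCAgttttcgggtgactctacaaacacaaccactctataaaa

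Cxcl1 held 3 NF-kB class matches, 2 of which overlap in 1 run. The chemokine gene Ppbp, whose promoter is not printed, held 0 matches of NF-kB class and 1 of AP-1 class. The AP-1 class match began 35 bases before the start in Mmp13, 63 in Mmp10 and 46 in Mmp3. Promoters were available for 7 of the 10 genes above both cultures; 5 of these held an AP-1 class match, 3 an NF-kB class match and 2 a match to TTCNNNGAA, a motif of STAT class, searched on both strands. The AP-1 class letters read TGACTCA in Mmp13, TGAGTCA in Mmp10, TGAATCA in Ppbp and Serpinb2, and TGATTCA in Selp. The motif allows any middle base, here and in the shares over all genes. Some of the 7 have more than 1 promoter listed, and a match in any was counted. By the same count, 7.82%, 19.67% and 8.13% of 27025 genes held them, and 6.75%, 17.63% and 7.02% of the 32851 single promoters. The genes were chosen by their values, so the shares are a description. These matches describe letters in a window and show no binding.

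Mmp13, collagenase 3, and the genes Serpinb2, Selp and Ptpn22 passed the detection filter only through the on-feeder arrays, so the filter fixed the direction of their differences. The log2 levels of Mmp13 were 6.67, 6.29 and 6.81 in iPSC on feeder, against 4.82, 4.74 and 4.81 in feeder-free iPSC and 4.82 and 4.83 in feeder cells. It was detected on all 3 on-feeder arrays and on none of the other 5, at least 3.0-fold over feeder-free iPSC (log2 difference 1.80, SE 0.13, adjusted p = 1.21e-06). Serpinb2, an inhibitor of urokinase, behaved likewise, with 6.02, 6.41 and 6.00 in iPSC on feeder, 4.75, 4.73 and 4.82 in feeder-free iPSC and 4.72 and 4.67 in feeder cells. It rose at least 2.21-fold (adjusted p = 7.36e-06), again with detection on the on-feeder arrays alone. The adhesion receptor gene Selp rose at least 1.73-fold and the phosphatase gene Ptpn22 at least 1.69-fold, also from detection on no feeder-free and no feeder array.

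Ppbp, a precursor of neutrophil-attracting chemokines, stood at 7.16, 7.00 and 7.46 in iPSC on feeder, against 4.80, 4.90 and 4.96 in feeder-free iPSC and 5.87 and 5.54 in feeder cells. It rose at least 4.61-fold over feeder-free iPSC (adjusted p = 2.08e-07). Ppbp was detected on no feeder-free array and on 1 of the 2 feeder arrays. It too passed the detection filter only through the on-feeder arrays, so the filter fixed the direction of its difference. Ccl2 had 6.95, 7.10 and 7.18 in iPSC on feeder, 4.62, 4.83 and 4.69 in feeder-free iPSC, and 6.60 and 6.00 in feeder cells. For both genes the on-feeder arrays lay above every other array.

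Mmp10, stromelysin 2, was measured in all 3 cultures and stood alone in iPSC on feeder: 7.39, 7.18 and 7.45 there, 6.06, 5.96 and 6.00 in feeder-free iPSC, and 5.99 and 5.93 in feeder cells (log2 difference from feeder-free 1.33, SE 0.10, adjusted p = 2.23e-06). Wwtr1, which encodes the transcriptional coactivator TAZ, rose by 1.39 (SE 0.16, adjusted p = 0.000123) on its brightest probe; its other 2 kept probes read 0.70 (adjusted p = 0.00255) and 0.13 (adjusted p = 0.752). Clgn, an endoplasmic reticulum chaperone of germ cells, rose by 0.86 with a second kept probe at 0.50, and the transcriptional repressor gene Bhlhe40 by 0.79.

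**Figure D2:**
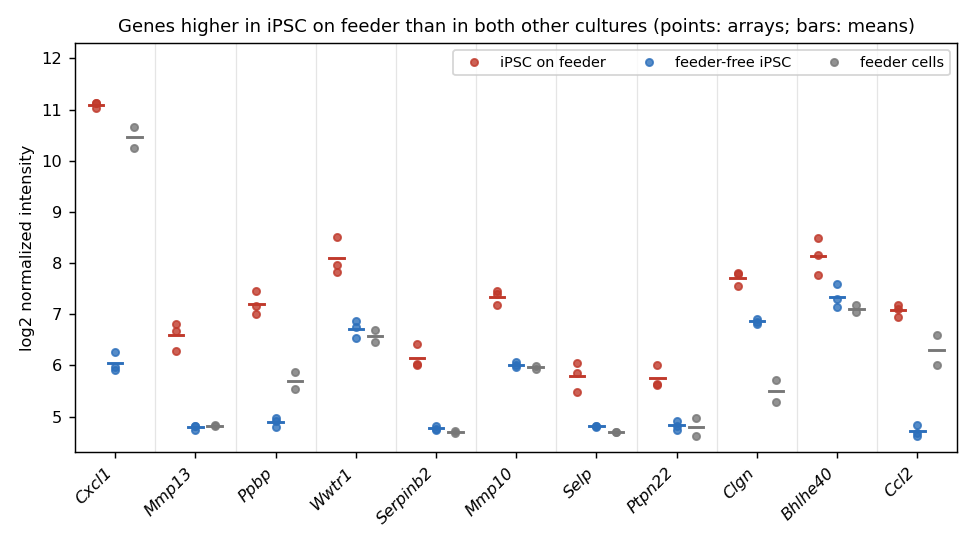
Log2 normalized intensity of Cxcl1 and of the 10 genes with the largest margin over both other cultures, for each array of iPSC on feeder (red, 3), feeder-free iPSC (blue, 3) and feeder cells (grey, 2); bars are group means. The on-feeder points lie above all others in every gene, with Mmp13 at 6.29 to 6.81 against 4.74 to 4.82 in feeder-free iPSC.

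Of 21 matrix proteases and inhibitors tested, 11 were called higher and 2 lower, against 9.86% and 8.3% of all genes, with a median log2 difference of 0.33 against -0.02 for all genes. Of the 11, 2 were detected on no feeder array. Mmp13, counted among the 11, passed the detection filter only through the on-feeder arrays, which fixed its direction. Plau, the protease urokinase, had 7.91, 7.62 and 7.85 in iPSC on feeder, against 5.47, 5.56 and 5.30 in feeder-free iPSC, and 8.92 and 8.31 in feeder cells; it rose 5.10-fold (log2 difference 2.35, SE 0.15, adjusted p = 5.32e-07). Mmp3, stromelysin 1, rose 4.05-fold, with 7.77, 7.98 and 7.74 in iPSC on feeder and 6.19, 5.60 and 5.64 in feeder-free iPSC, below the feeder levels of 9.07 and 8.85. Inhibitors rose beside proteases: Timp1, which blocks metalloproteinases, rose 2.92-fold and the serpin gene Serpinf1 4.95-fold on its brightest probe, while its other kept probe read 0.23 (adjusted p = 0.142). The gelatinase gene Mmp9 rose by 0.88, the membrane-anchored Mmp14 by 0.56 and the urokinase receptor gene Plaur by 0.40. The secreted serine protease gene Htra1 fell by 0.54 and the collagen chaperone gene Serpinh1 by 0.36. Under median scaling 8 members were called higher and 0 lower.

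NF-kB and inflammatory genes rose in part. The list had 8 of 15 members higher and 1 lower, against 9.86% and 8.3% of all genes. Its median was 0.40, or 0.30 with the members at background in feeder-free iPSC set to their bounds. Csf1, the macrophage colony-stimulating factor, had 6.55, 6.72 and 6.63 in iPSC on feeder, against 5.21, 5.03 and 4.88 in feeder-free iPSC, and 8.08 and 8.09 in feeder cells (log2 difference 1.59, SE 0.11, adjusted p = 8.08e-07). Tnfaip2, a TNF-induced gene, rose by the same 1.59 (SE 0.14), and Traf1, a signalling adaptor, at least 1.82-fold. Rela, the transactivating NF-kB subunit, had 9.26, 9.27 and 9.45 in iPSC on feeder, 8.62, 8.26 and 8.44 in feeder-free iPSC, and 11.08 and 11.19 in feeder cells, a rise of 0.89. Csf1 and Tnfaip2 were detected on 2 of the 3 feeder-free arrays. The on-feeder and feeder-free arrays did not overlap for any of these 4, and feeder cells stood above both iPSC groups in each. The alarmin gene Il33 rose by 0.86. Nfkbie, an NF-kB inhibitor, rose by 1.08 on its brightest probe, its other kept probe reading 0.32 (adjusted p = 0.0619).

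AP-1 and immediate early genes did not move together. Of 15 members 3 rose and 2 fell, against 9.86% higher and 8.3% lower among all genes, with a median of 0.00. Jun rose by 1.12 (SE 0.15, adjusted p = 0.000306), with 6.76, 6.97 and 6.75 in iPSC on feeder, 5.89, 5.91 and 5.32 in feeder-free iPSC, and 9.26 and 9.23 in feeder cells. Fosl2 rose by 1.33 and Egr3, detected on 2 of 3 feeder-free arrays, by 1.05, but a second kept probe of each read 0.07 (adjusted p = 0.763) and -0.11 (adjusted p = 0.609). The neuronal immediate early gene Arc fell by 0.53. Fosl2, Jun and Egr3 were also called higher under median scaling, and 0 members lower.

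In the TGF-beta family the list had 10 of 16 members higher and 2 lower, with a median of 0.65, against 9.86% higher and 8.3% lower among all genes. Ltbp1, which tethers latent TGF-beta to the matrix, had 6.92, 6.72 and 7.32 in iPSC on feeder, 5.16, 4.83 and 4.96 in feeder-free iPSC, and 7.67 and 7.66 in feeder cells, and rose 4.01-fold (log2 difference 2.00, SE 0.15, adjusted p = 1.76e-06). Its relative Ltbp3 read 7.77 on each of the 3 on-feeder arrays, against 6.09, 5.66 and 5.16 in feeder-free iPSC, and rose by 2.13 with its other kept probes at 1.74 and 0.91. Ltbp2 rose by 1.55, whereas Ltbp4 fell by 0.65, its other kept probe at -0.38 (adjusted p = 0.143). The matrix protein gene Thbs2 rose by 1.95. In feeder-free iPSC Ltbp1 and Ltbp2 were detected on 1 of 3 arrays and Thbs2 on 2. Ltbp4 thus ran opposite to the other 3 latent TGF-beta binding protein genes.

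Among TGF-beta ligands, Tgfb2 was at 0.10 (adjusted p = 0.665). Tgfb1 fell by 0.67 (SE 0.13, adjusted p = 0.00478), with 5.73, 5.40 and 5.63 in iPSC on feeder and 6.29, 6.28 and 6.20 in feeder-free iPSC, and was detected on no feeder array. Tgfb3 rose by 0.68 (SE 0.11, adjusted p = 0.000983), with 5.70, 5.95 and 5.69 in iPSC on feeder, 5.01, 5.09 and 5.19 in feeder-free iPSC, and 9.32 and 9.44 in feeder cells. Of the receptors, the accessory receptor gene Tgfbr3 rose by 1.08 with its other kept probe at 0.96. Tgfbr2, the ligand-binding kinase, rose by 1.17 on its brightest probe alone, the other at 0.17 (adjusted p = 0.537). Tgfbr1, its partner kinase, was at -0.21 (SE 0.15, adjusted p = 0.366). Smad3, which carries the signal to the nucleus, had 9.25, 9.43 and 9.60 in iPSC on feeder, 8.28, 8.26 and 8.27 in feeder-free iPSC, and 9.66 and 9.67 in feeder cells, a rise of 1.15 (SE 0.11, adjusted p = 1.31e-05). The 3 on-feeder arrays lay close under the feeder arrays for Smad3. The calls of Tgfb1 and Ltbp4 ended under median scaling.

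In the Nodal branch, which pluripotent cells run among themselves, 0 of 11 members were called higher and 3 lower, against 9.86% and 8.3% of all genes. The median was -0.07, against -0.02 for all genes. Foxh1, the DNA-binding partner of Nodal-activated SMADs, had 6.51, 6.74 and 6.21 in iPSC on feeder, against 7.20, 7.24 and 7.13 in feeder-free iPSC (log2 difference -0.70, SE 0.13, adjusted p = 0.00275). Pcsk6, a protease that matures Nodal, fell by 0.55, and the Nodal inhibitor gene Lefty2 by 0.46, from which the call was lost without feeder-free replicate 3 (-0.39, adjusted p = 0.0546). Nodal itself was at -0.04 (SE 0.13, adjusted p = 0.846) and Lefty1 at -0.01 (SE 0.13, adjusted p = 0.955). Foxh1, Pcsk6 and Lefty2 were detected on no feeder array, and under median scaling none of the 3 was called by limma.

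**Figure D3:**
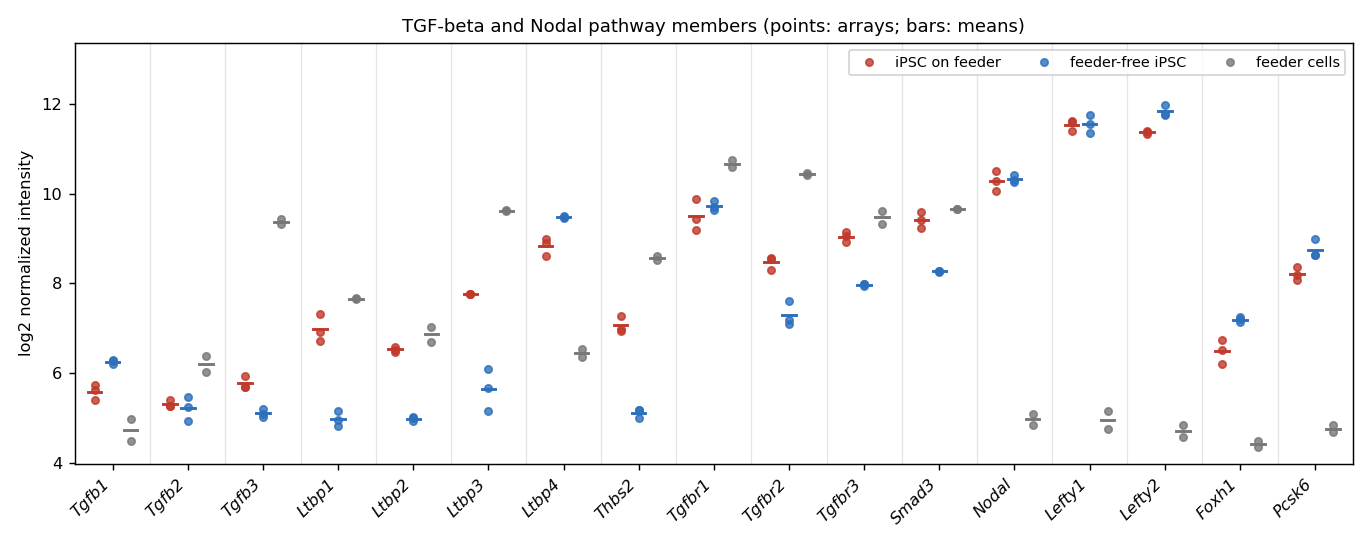
Log2 normalized intensity of TGF-beta ligands, binding proteins, receptors and Smad3, then of Nodal pathway genes, for each array of iPSC on feeder (red, 3), feeder-free iPSC (blue, 3) and feeder cells (grey, 2); bars are group means. Ltbp1, Ltbp2, Ltbp3, Thbs2 and Smad3 show the on-feeder points above the feeder-free points, Tgfb1, Ltbp4, Lefty2, Foxh1 and Pcsk6 below, and the Nodal and Lefty1 points overlap.

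Genes of 3 IGF-binding proteins, which hold insulin-like growth factors outside cells, rose by similar amounts. Of the 12 members of the IGF list tested, 7 were not called. Igfbp7 had 7.81, 7.48 and 8.03 in iPSC on feeder, 5.75, 5.88 and 5.66 in feeder-free iPSC, and 7.45 and 7.43 in feeder cells (log2 difference 2.02, SE 0.13, adjusted p = 7.07e-07). Igfbp6 had 7.56, 7.42 and 7.40 in iPSC on feeder, 5.38, 5.37 and 5.61 in feeder-free iPSC, and 11.20 and 11.13 in feeder cells, a rise of 2.01. Igfbp4 rose by 2.00 with its other kept probe at 1.25. The 3 rises were alike while the feeder arrays lay level with iPSC on feeder for Igfbp7 (on-feeder minus feeder 0.34, adjusted p = 0.0547) and far above them for Igfbp6 (-3.70). The docking protein gene Irs1 rose by 0.68 and the scavenger receptor gene Igf2r by 0.47 (0.45, adjusted p = 0.0558, without on-feeder replicate 1), which made 5 of 12 members of the IGF list higher and 0 lower, with a median of 0.19. Of all genes, 9.86% were called higher and 8.3% lower. Under median scaling 3 members were called.

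Growth and guidance factors had 12 of 26 members higher and 4 lower, against 9.86% and 8.3% of all genes. The median was 0.22, or 0.17 with members at background set to their bounds. Ptn, a heparin-binding growth factor, had 7.83, 7.80 and 7.83 in iPSC on feeder, 6.00, 5.54 and 5.52 in feeder-free iPSC, and 13.25 and 13.46 in feeder cells (log2 difference 2.14, SE 0.13, adjusted p = 4.14e-07). Mdk, the other member of its family, had 10.20, 10.41 and 10.51 in iPSC on feeder, 9.89, 9.89 and 9.51 in feeder-free iPSC, and 4.50 and 4.69 in feeder cells, where it was not detected; it rose by 0.61 (SE 0.13, adjusted p = 0.00749). Both members of the family were thus higher in iPSC on feeder, with opposite levels in feeder cells. The BMP antagonist gene Grem1 rose 3.39-fold, and of the axon guidance genes Slit2 rose at least 2.41-fold and Sema3a at least 1.57-fold. Kitl, the stem cell factor, rose at least 1.32-fold, and the EGF family ligand gene Hbegf rose by 0.58 on 1 of 2 kept probes, the other at -0.01. The platelet-derived growth factor gene Pdgfb fell by 0.56. Under median scaling 6 members were called higher and 0 lower.

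Some surface proteins known from stromal cells rose by large amounts. Of 19 tetraspanins and surface proteins 8 rose and 1 fell, against 9.86% and 8.3% of all genes, with a median of 0.15. Vcam1, a receptor for integrins, had 9.25, 8.94 and 9.45 in iPSC on feeder, 5.79, 5.90 and 5.84 in feeder-free iPSC, and 11.38 and 11.34 in feeder cells. The stem and endothelial cell sialomucin gene Cd34 rose at least 3.45-fold and Thy1, a fibroblast marker, 2.83-fold. Cd44 rose by 3.09 on its brightest probe and by 0.74 and 0.14 (adjusted p = 0.531) on its other 2 kept probes. Beyond the list, the receptor tyrosine kinase gene Axl had 10.64, 10.68 and 10.64 in iPSC on feeder, 8.06, 8.11 and 7.95 in feeder-free iPSC, and 13.29 and 13.20 in feeder cells, and Msln, a surface protein of mesothelium, rose at least 5.37-fold.

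The 30 largest rises included Cavin2, Cav1 and Cav2, which encode parts of caveolae, the flask-shaped pits of the plasma membrane; these were picked after their values were seen. Cavin2, a coat protein of caveolae, had 10.54, 10.29 and 10.34 in iPSC on feeder, 6.93, 6.88 and 6.73 in feeder-free iPSC, and 12.66 and 12.60 in feeder cells (log2 difference 3.54, SE 0.10). Cav1, their main structural protein, had 8.81, 8.78 and 9.10 in iPSC on feeder, 5.76, 5.44 and 5.42 in feeder-free iPSC, and 10.25 and 10.08 in feeder cells. Cav2 rose by 2.43. Matrix genes among the same 30 included the crosslinking enzyme gene Lox (2.57, detected on 2 of 3 feeder-free arrays), Ecm1 (2.83, its other kept probe at 0.83) and the basement membrane collagen gene Col4a5 (2.84, its other kept probe at 2.02). Tenascin C, Tnc, had 8.79, 8.73 and 8.75 in iPSC on feeder, 6.18, 6.37 and 6.56 in feeder-free iPSC, and 8.78 and 9.10 in feeder cells, on the brightest of 3 kept probes; the others read 1.64 and 0.53. Ccl7, a monocyte chemokine, rose by 2.59 and Ankrd1, a known target of YAP and TAZ in other cells, by 2.34. Lif, the cytokine added to the feeder-free medium, had 6.70, 6.76 and 6.76 in iPSC on feeder, 5.96, 5.93 and 5.88 in feeder-free iPSC, and 7.29 and 7.27 in feeder cells (log2 difference 0.82, SE 0.09, adjusted p = 5.93e-05).

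Integrins, laminins and nidogen moved in both directions. Of 16 members 4 rose and 4 fell, against 9.86% and 8.3% of all genes, with a median of -0.09. Itga3 rose by 0.52 with feeder levels of 9.92 and 9.80, against 9.08, 9.15 and 9.34 in iPSC on feeder and 8.76, 8.58 and 8.68 in feeder-free iPSC. Itgav rose by 0.56 on its brightest probe, while its other 2 kept probes both read -0.21 (adjusted p = 0.248 and 0.246). The epithelial laminin chain genes Lamb3 (-0.71, SE 0.11, adjusted p = 0.00107) and Lama5 (-0.67, SE 0.11, adjusted p = 0.00148) fell, and neither was detected on a feeder array. The integrin genes Itga5 (-0.67, adjusted p = 0.0142) and Itgb4 (-0.45, adjusted p = 0.0153) also fell; Itga5 was detected on both feeder arrays and Itgb4 on none. The call of Itgb4 ended without on-feeder replicate 1 (-0.41, adjusted p = 0.0616). That of Itga5 ended without on-feeder replicate 1 (-0.64, adjusted p = 0.0537) or 3 (-0.64, adjusted p = 0.0542), and without feeder-free replicate 1 (-0.56, adjusted p = 0.0517) or 2 (-0.58, adjusted p = 0.0662). Lama5 had 7.94, 8.03 and 7.75 in iPSC on feeder, against 8.50, 8.63 and 8.59 in feeder-free iPSC. Under median scaling 0 were called higher and 1 lower.

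Epithelial junction and keratin genes gave 0 of 19 higher and 4 lower, against 9.86% and 8.3% of all genes, with a median of -0.10. Krt8, a keratin of simple epithelia and of pluripotent colonies, had 10.89, 10.90 and 10.99 in iPSC on feeder, 11.30, 11.29 and 11.36 in feeder-free iPSC, and was not detected on a feeder array. The placental cadherin gene Cdh3 fell by 0.57 with its other kept probes at -0.53 and -0.83, and plakoglobin, Jup, by 0.84 on its brightest probe, the other at -0.17 (adjusted p = 0.336). The shortfall of Krt8 was small, -0.39 (SE 0.09, adjusted p = 0.0116), with no overlap of the arrays.

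Some transcription factors of mesenchyme and of body position rose. Sox9, a regulator of cartilage and of epithelial progenitors, had 9.51, 9.38 and 9.69 in iPSC on feeder, 7.13, 6.98 and 7.20 in feeder-free iPSC, and 11.59 and 11.64 in feeder cells. Twist2 rose by 1.85 and Twist1 by 0.83, and the mesenchymal list had 6 of 15 higher and 1 lower with a median of 0.30, or 0.23 with members at background set to their bounds. Of the homeobox genes that set axial position, 7 of 17 tested were higher and 0 lower. Their median was 0.28, or 0.18 with members at background set to their bounds. The shares over all genes were 9.86% higher and 8.3% lower. Hoxa5 had 7.11, 6.79 and 6.93 in iPSC on feeder, 5.37, 5.23 and 5.18 in feeder-free iPSC, and 11.45 and 11.51 in feeder cells. Hoxb5 rose at least 1.51-fold, and Hoxc6 at least 2.49-fold on its brightest probe, the other at -0.18 (adjusted p = 0.504). The counts under median scaling were 3 in the mesenchymal and 4 in the homeobox list. The orphan receptor gene Nr2f1 rose by 1.70, with feeder levels of 9.19 and 9.29, while Stra6, the receptor for retinol carried in blood, fell by 0.68 and was detected on no feeder array; of 11 retinoic acid genes 2 rose and 1 fell.

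Fibroblast markers themselves did not rise evenly. Col6a1 rose by 2.50, Dcn by 2.42, Loxl1 by 1.82 and Col1a1 by 1.24, whereas Mmp2 rose by 0.33. Fibronectin, Fn1, was at -0.11 (SE 0.12, adjusted p = 0.562) with none of its other 3 kept probes called, and stood higher in both iPSC groups than in feeder cells. Prrx1 was at -0.20 (SE 0.13, adjusted p = 0.299) on its brightest probe, but its other 3 kept probes read 0.29 (adjusted p = 0.208), 0.84 (adjusted p = 0.000294) and 1.11 (adjusted p = 3.53e-05). Of 7 blood and macrophage markers with a probe, 6, among them Ptprc, Lyz2 and Tyrobp, were detected on no array, and the remaining marker, the receptor gene Cd14, was detected on both feeder arrays and on no feeder-free array. The summed signal of the 7 was 168 to 171 in iPSC on feeder, 158 to 167 in feeder-free iPSC, and 276 and 266 in feeder cells.

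The largest falls were of genes little detected in feeder cells. Of the 25 largest falls, from -1.76 to -0.99, 18 were detected on no feeder array. The stomach and gut epithelium list had 5 of 14 members lower and 0 higher, against 8.3% and 9.86% of all genes, with a median of -0.24. Gkn1, a secreted peptide of the stomach lining, had 6.51, 6.46 and 6.39 in iPSC on feeder, against 8.29, 8.19 and 8.14 in feeder-free iPSC (log2 difference -1.76, SE 0.10, adjusted p = 1.76e-07). Pga5, a pepsinogen, had 8.46, 8.44 and 8.79 in iPSC on feeder and 9.99, 10.07 and 9.95 in feeder-free iPSC. Lgals2, a galectin of gut epithelium, fell by 0.95. The list was drawn up with earlier results of these data known, so its count is no independent evidence of its direction.

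Other falls were spread over secreted signals and differentiated products. Nog, a BMP antagonist, had 6.63, 6.45 and 6.76 in iPSC on feeder, 7.51, 7.87 and 7.93 in feeder-free iPSC, and 6.78 and 6.87 in feeder cells (log2 difference -1.16, SE 0.13, adjusted p = 7.06e-05). Ihh, a hedgehog ligand, fell by 1.17 (SE 0.17), with 5.08, 4.89 and 5.23 in iPSC on feeder and 5.79, 6.56 and 6.35 in feeder-free iPSC. It was detected on 2 of 3 on-feeder arrays and passed the detection filter only through the feeder-free arrays, which favoured a fall. Pth1r, the receptor for parathyroid hormone and a marker of parietal endoderm, fell by 1.12 (SE 0.10), and its other kept probe by 0.90. The hemidesmosome-associated gene Lad1 fell by 1.07, the forkhead factor gene Foxq1 by 1.06, the cardiac myosin light chain gene Myl3 by 1.04 and the histamine-synthesizing enzyme gene Hdc by 1.15.

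**Figure D4:**
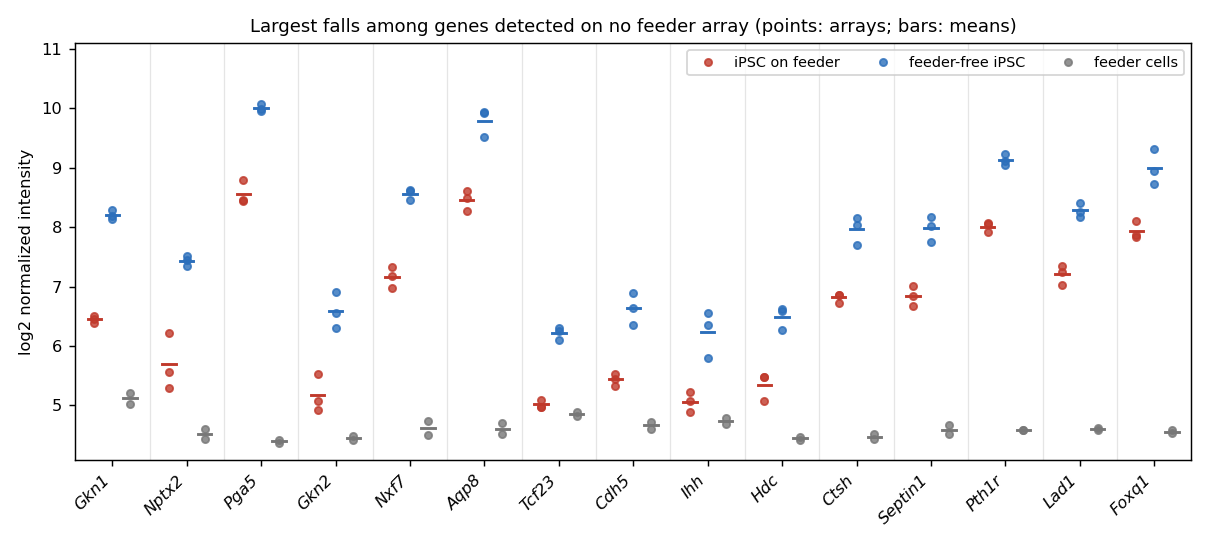
Log2 normalized intensity of the 15 largest falls among genes detected on no feeder array, for each array of iPSC on feeder (red, 3), feeder-free iPSC (blue, 3) and feeder cells (grey, 2); bars are group means. In every gene the on-feeder points lie below the feeder-free points, and feeder cells lie lowest. Gkn1 spans 6.39 to 6.51 against 8.14 to 8.29. Gkn2, Tcf23 and Ihh passed the detection filter only through the feeder-free arrays, which favoured a fall.

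Further genes of the 25 largest falls are known for roles in RNA. The splicing factor gene Sf3a2 fell by 1.19 (SE 0.18), the deadenylase subunit gene Cnot3 by 1.11, the exon junction gene Pym1 by 1.11 with its other kept probe at -0.84, and Scaf1 by 1.06. Feeder cells had 5.85 and 6.48 for Sf3a2, 5.67 and 5.62 for Cnot3, and 7.23 and 7.12 for Pym1. Scaf1 had 9.02, 8.78 and 8.43 in iPSC on feeder, 9.69, 9.90 and 9.83 in feeder-free iPSC, and 9.70 and 9.93 in feeder cells. Eif4ebp2, a translational repressor, had 8.90, 9.68 and 8.85 in iPSC on feeder, 9.91, 10.59 and 10.73 in feeder-free iPSC, and 9.63 and 9.66 in feeder cells; 1 array of each iPSC group stood apart from its fellows.

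Of 24 lysosomal genes tested 10 fell, 2 rose and 12 were not called, against 8.3% lower and 9.86% higher among all genes, with a median of -0.22. Ctsh, a cathepsin, had 6.73, 6.86 and 6.87 in iPSC on feeder, 8.04, 8.16 and 7.70 in feeder-free iPSC, and was not detected on a feeder array (log2 difference -1.15, SE 0.12, adjusted p = 4.94e-05). Lipa, the acid lipase, fell by 0.77 and the peptidase gene Tpp1 by 0.70. Some falls rested on the brightest probe alone. Ctsa fell by 0.62 with its other kept probe at -0.26 (adjusted p = 0.198), Ctsc by 0.57 with the other at -0.39 (adjusted p = 0.129), and Neu1 by 0.46 with the other at -0.14 (adjusted p = 0.496). The membrane protein gene Lamp2 ran the other way on all 3 of its kept probes, at 0.98, 0.60 and 0.45, with 9.70, 9.83 and 9.86 in iPSC on feeder, 8.92, 8.97 and 8.57 in feeder-free iPSC, and 11.23 and 11.06 in feeder cells. Under median scaling 2 members were called lower and 1 higher, and cyclic loess gave 9 and 2. With the mean of kept probes 8 members were called lower.

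Genes of antigen display split. Of 12 MHC class I and antigen-processing genes 3 rose and 2 fell, against 9.86% and 8.3% of all genes, with a median of -0.13. B2m, the light chain of class I molecules, had 11.55, 11.54 and 11.73 in iPSC on feeder, 10.25, 10.59 and 10.32 in feeder-free iPSC, and 13.02 and 13.04 in feeder cells. The immunoproteasome subunit gene Psmb8 fell by 0.55 and was not detected on a feeder array.

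Of the 11 pluripotency markers 0 were called higher and 2 lower, with a median of -0.16 and 3 at an unadjusted p under 0.05. For this and the other marker lists, the shares over all genes were 9.86% higher and 8.3% lower. Pou5f1 had 12.45, 12.73 and 12.39 in iPSC on feeder, against 12.55, 12.69 and 12.81 in feeder-free iPSC, and Nanog 11.16, 10.96 and 11.57 against 11.17, 11.03 and 10.90; the arrays of both groups overlapped for each gene. Utf1, a chromatin factor of pluripotent cells, had 10.38, 10.52 and 10.23 in iPSC on feeder and 10.87, 11.06 and 10.75 in feeder-free iPSC, a difference of -0.51 whose call ended without feeder-free replicate 2 (-0.43, adjusted p = 0.050). Of 8 primitive endoderm markers tested 5 fell and 0 rose, with a median of -0.50. The largest of these falls, Gata4, was -1.26 on its brightest probe, the other kept probe at 0.09 (adjusted p = 0.676). The summed signal of the 10 with a probe was 3341 to 4053 in iPSC on feeder and 4575 to 4980 in feeder-free iPSC. Of 7 endothelial markers 3 fell and 0 rose, among them the cadherin gene Cdh5, with 5.33, 5.45 and 5.54 in iPSC on feeder and 6.36, 6.89 and 6.64 in feeder-free iPSC. Of 6 trophoblast markers 0 rose and 1 fell, of 3 keratinocyte markers 0 and 1, and of 3 neural markers 0 and 0 by limma, with 1 neural marker at an unadjusted p under 0.05. Under median scaling 0 pluripotency markers and 1 primitive endoderm marker were called lower.

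Wilms tumour gene Wt1, a transcription factor of mesothelium and kidney, had 8.72, 8.66 and 8.97 in iPSC on feeder, 8.30, 7.79 and 8.13 in feeder-free iPSC, and was not detected on a feeder array; it rose by 0.71 (SE 0.14, adjusted p = 0.00373). It belongs to the 15 largest rises among genes detected on no feeder array, which ran from 0.57 to 1.80. The transcription factor gene Sox5, detected on 1 of 3 feeder-free arrays, rose by 0.65 and the amine oxidase gene Aoc3 by 0.65. Sox5 passed the detection filter only through the on-feeder arrays, which favoured a rise. Smc3, a cohesin subunit, rose by 0.63 on its brightest probe, the other at -0.02 (adjusted p = 0.965). Mpp6 and Trmt6 rose by 0.71 and 0.63. Under median scaling the calls of Wt1 (0.70, adjusted p = 0.160), Aoc3 (0.65, adjusted p = 0.217), Smc3 (0.64, adjusted p = 0.177) and Mpp6 (0.77, adjusted p = 0.0752) ended, with differences of similar size.

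Of 47 ribosomal protein genes 0 were called in either direction by limma, with a median of -0.01 and 1 at an unadjusted p under 0.05. Of 64 oxidative phosphorylation genes 0 were called, with a median of -0.01 (0.02 with cyclic loess) and 4 at an unadjusted p under 0.05, and of 16 tRNA synthetase genes 0, with 1 at an unadjusted p under 0.05. Replication genes had 1 of 29 higher and 2 lower, and heat shock and chaperone genes 2 of 22 and 0, with a median of 0.08. The shares over all genes were 9.86% higher and 8.3% lower. Ribosome biogenesis genes had 3 of 23 higher and 1 lower, and nutrient carriers 2 of 27 and 4, both with a median of -0.09. In the proteasome list 2 of 29 rose: Psmb6, a catalytic subunit, had 10.11, 10.11 and 10.01 in iPSC on feeder, 8.6, 8.38 and 8.38 in feeder-free iPSC, and 13.09 and 13.02 in feeder cells, on its only kept probe. Polr1b, a subunit of RNA polymerase I, rose at least 1.42-fold, with 5.55, 5.59 and 5.37 in iPSC on feeder and 10.16 and 10.15 in feeder cells.

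Among chromatin regulators, DNA methylation genes had 1 of 15 higher and 2 lower, and polycomb genes 2 of 24 and 2, near the shares of all genes called (9.86% higher, 8.3% lower). Dnmt3b was not called on its brightest probe (-0.06), but its other kept probe read -0.70 (adjusted p = 0.00273). L3mbtl2, of a variant polycomb complex, fell by 0.57 and the polycomb-associated Phf19 by 0.49, while Phc2 rose by 0.51. Of 20 imprinted genes 3 rose and 2 fell. Peg3 (-0.15) and Snrpn (0.09) were not called on their brightest probes. Other kept probes read -0.63 (adjusted p = 0.0172) and -0.67 (adjusted p = 0.0421) for Peg3, and -0.51 (adjusted p = 0.0349) for Snrpn. The paternally expressed Dlk1 had 11.42, 10.98 and 11.18 in iPSC on feeder, 9.58, 9.53 and 9.69 in feeder-free iPSC, and 13.10 and 13.21 in feeder cells, a rise of 1.59 (SE 0.12, adjusted p = 2.04e-06). Nnat, an imprinted gene of neuroendocrine cells, fell by 0.49, its other kept probe at -0.21 (adjusted p = 0.314). Neuronal genes had 1 of 16 higher and 3 lower, led by the synaptic pentraxin gene Nptx2 with 6.22, 5.29 and 5.57 in iPSC on feeder and 7.51, 7.34 and 7.45 in feeder-free iPSC.

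**Figure D5:**
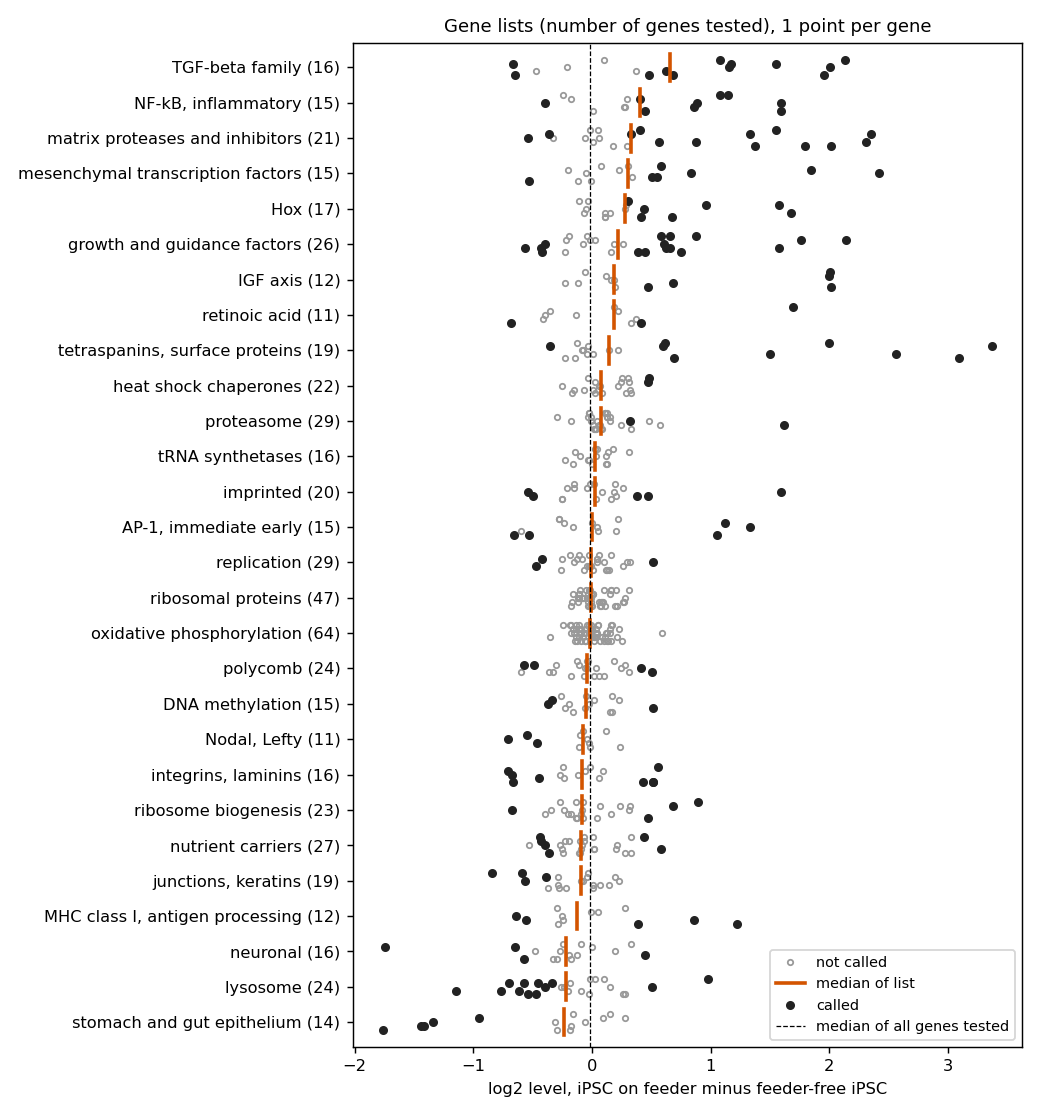
Log2 difference, iPSC on feeder minus feeder-free iPSC, of every tested member of the 28 gene lists, ordered by list median (orange bars); filled points were called at an adjusted p under 0.05, and the dashed line is the median of all genes, -0.02. The TGF-beta family list lies highest with a median of 0.65, ribosomal protein and oxidative phosphorylation genes lie at -0.01 (0.02 for the oxidative phosphorylation genes with cyclic loess), and the lysosome and stomach lists lie lowest at -0.22 and -0.24.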

How the data were processed

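The deposited table held the authors' non-normalized bead intensity for each probe, per the file headers, and beside each array a deposited detection score, which rose with the signal. The submitters' processing notes name limma, with its role, its version and the genome build not given in the sources used here. The deposited feeder-free columns were pools (91% or 92% feeder-free signal, the rest feeder signal); each feeder-free array was instead solved from its mixture column, (mixture - 8% of the feeder mean) / 92%, and gave Spearman correlations of 0.9965, 0.9968 and 0.9978 with their own detection scores. 5 entries with no probe ID (0.498% of feeder array 1's signal) were dropped.

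Intensities were background-corrected (normexp from detection p-values, offset 16), quantile normalized over 8 arrays and put on the log2 scale with limma 3.58.1 in R 4.3.3. Of 46627 probes, 18144 were detected (score over 0.95) on every array of a group; the brightest stood for each gene. The fit used lmFit and eBayes (5 residual and 6.76 prior degrees of freedom), two-sided, with Benjamini-Hochberg adjustment over all 10058 genes; p-values of other probes were adjusted over all probes kept. "At least" folds use, for an undetected group, each array's lowest detected level as a floor. Median SDs within groups were 0.13 log2 units on feeder and 0.12 feeder-free, and the number of arrays limits the precision. The fit was tested on simulated data.

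The comparison, the gene lists and the tests were chosen with earlier results of these data known. Most genes named came from the 30 largest rises and 25 largest falls with no overlap of arrays, the 15 of each among genes detected on no feeder array, the 10 with the largest margin over both other cultures, up to 5 called members per list, and Ccl2, Cxcl1 and Lif. A further 26 genes were picked after their values were seen, and some of these, such as Sox2, are not printed above. A few printed genes, such as Tgfb2 and Tgfbr1, belong to neither set. Alternatives were another normalization, offset, background correction, filter, probe summary and array weights, the iPSC arrays alone, the replicate number as a block and each array left out. Files were read in Python 3.11.15 (pandas 2.3.3, numpy 2.4.6), and figures made with matplotlib 3.10.9. Promoters came from RefSeq (GRCm38.p6).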

Additional observations from a re-analysis of the deposited data

How the results depend on the processing

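The naming rules and the 26 further genes gave 199 called genes, not all of them printed above. Of these, 116 kept their call and direction under all 18 alternatives, 155 under all but median scaling and 157 under each fit that left out 1 array. None reversed. Median scaling gave 399 called genes (309 higher, 90 lower; 8 and 50 among genes detected on no feeder array), and 3 called members of the IGF, 6 of the growth and guidance, 2 (lower) of the lysosome, 3 of the mesenchymal and 4 of the homeobox list; the cause was not tested. Array weights gave 109 genes higher and detected on no feeder array. The homeobox count was 4 with an offset of 50 and without background correction. Calls in the lists with 0 were 1 ribosomal protein (array weights), 1 tRNA synthetase (cyclic loess, added after seeing the data; offset 50; no background correction; a detection score over 0.99; array weights), 1 oxidative phosphorylation gene higher (cyclic loess, offset 50, no background correction, iPSC arrays alone) and 1 or 2 lower (no background correction, array weights). Leaving out 1 array gave 1134 to 2161 called genes (667 to 1136 higher, 458 to 1025 lower; 26 to 97 and 191 to 304 detected on no feeder array), 4 to 6 homeobox genes, 0 to 1 tRNA synthetases and 0 to 1 oxidative phosphorylation genes in each direction. The replicate number as a block gave 1425 genes (778 higher and 647 lower, of which 58 and 260 were detected on no feeder array) and 1 oxidative phosphorylation gene. Deviations of same-numbered arrays correlated at 0.02, 0.16 and -0.20, and not every array correlated best with its own number. With 3 arrays in each group these values cannot tell whether same-numbered samples were handled together, and the main fit did not pair them. Among genes without a call the sign turned for Nanog (-0.073, mean of kept probes), Nodal (0.004 with cyclic loess, 0.003 with the mean of kept probes, -0.155 to 0.072 leaving out 1 array), Lefty1 (0.002 with cyclic loess, 0.035 with array weights, -0.112 to 0.088 leaving out 1 array) and Prrx1 (0.512 with the mean of kept probes, adjusted p = 0.00367), whose other kept probes read higher. Genes near background have only bounds; detected probes had 2.56 to 3.2 times the median signal of undetected ones.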
